A study of Mus musculus with 6 samples.

Results

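Cadherins are calcium-dependent adhesion receptors, and protocadherins are their relatives with extracellular cadherin repeats and a different cytoplasmic tail. The set described here holds every mouse gene on the array whose symbol begins with Cdh and a digit, or with Pcdh and a digit, a, b or g, and that has at least 1 probe set annotated to it alone. That rule found 56 genes of 18193 on the array, with 101 probe sets between them, and 1 probe set per gene (the one with the highest mean over all arrays) carried the values below. RNA came from olfactory epithelium of 1-day-old pups on a mixed C57Black6/J and 129SvJ background, 3 wildtype and 3 mutant, with 1 array per pup. The series title names targets of KLF7, a zinc finger transcription factor, in sensory neurons of this tissue. The labels say only "mutant", so neither the allele nor the cells in which it acts are given in the sources used here.

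Classical cadherins of types I and II bind like with like across cell contacts, and their tails hold beta-catenin and p120 catenin, which link adhesion to actin through alpha-catenin. E-cadherin (Cdh1) is the main adhesion receptor of epithelia, N-cadherin (Cdh2) that of neurons and mesenchyme. Protocadherins are best known in the nervous system: the clustered families are chosen in combinations by single neurons, olfactory sensory neurons included, and give a cell its surface identity, while the delta families sort axons and cells. Mouse Cdh8, Cdh10 and Pcdh10 belong to the classes known for region-specific expression in brain and olfactory pathways.

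Array intensities are given as log2 of the quantile normalized value, raised to a floor of 3.65. Array medians before normalization ran from 38.21 to 61.59. The 4 Klf7 probe sets were lower on each mutant array than on any wild-type array, with log2 differences of -3.06 to -2.15, and Klf7 was still not among the genes called below. The first principal component over all genes tested (50.2% of the variance) set wild-type array 3 (98.24) and mutant array 3 (49.54) apart from the other 4 (-42.40 to -32.30). Markers of mature olfactory neurons (9 of 12 listed were measured, none at the floor on all arrays) had a median level of 8.0 to 9.28 over the arrays, sustentacular and gland markers (8 of 9) 9.58 to 10.67, and skeletal muscle markers (9 of 9) 3.65 to 5.46. Squamous epithelium markers (12 of 12) ranged from 4.08 on mutant array 2 to 9.08 on wild-type array 2, with 6.77 and 6.78 on mutant arrays 1 and 3 and 4.81 and 4.38 on wild-type arrays 1 and 3. In RNA from whole tissue, fewer cells of a type and less RNA per cell cannot be told apart.

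RefSeq promoter windows (GRCm38.p6) were held for 20 of the 56 genes. Those of Cdh8, Cdh10 and Pcdh10 are shown because these genes had probe sets that were high on the same arrays in the results below. Each line gives the 250 bases before the annotated start, 5′ to 3′ on the gene's strand, and capitals mark CACCC and GGGCGG on either strand, short letters of the kind that Krüppel-like factors and Sp factors bind. The windows lie at chr8:99416472-99416721 (minus strand) for Cdh8, chr15:18820079-18820328 (plus) for Cdh10 and chr3:45378148-45378397 (plus) for Pcdh10.
Cdh8: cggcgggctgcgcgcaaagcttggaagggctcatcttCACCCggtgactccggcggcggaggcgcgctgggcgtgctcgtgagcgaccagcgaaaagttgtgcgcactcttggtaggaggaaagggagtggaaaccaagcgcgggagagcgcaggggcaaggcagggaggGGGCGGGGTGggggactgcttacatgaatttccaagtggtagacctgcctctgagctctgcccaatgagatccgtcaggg
Cdh10: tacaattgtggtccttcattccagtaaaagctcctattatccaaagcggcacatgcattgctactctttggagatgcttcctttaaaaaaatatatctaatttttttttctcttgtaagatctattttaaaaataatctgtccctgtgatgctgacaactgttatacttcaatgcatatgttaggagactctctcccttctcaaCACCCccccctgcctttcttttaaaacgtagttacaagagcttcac
Pcdh10: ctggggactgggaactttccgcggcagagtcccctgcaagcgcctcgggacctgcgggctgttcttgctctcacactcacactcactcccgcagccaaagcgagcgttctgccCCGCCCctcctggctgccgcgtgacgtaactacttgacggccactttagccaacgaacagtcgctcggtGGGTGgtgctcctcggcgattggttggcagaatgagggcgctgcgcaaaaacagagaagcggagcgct
The Cdh8 window held CACCC 2 times and GGGCGG 1 time, with an overlap between a match of each. The Cdh10 window held CACCC 1 time and no GGGCGG, and the Pcdh10 window held each 1 time. Their GC content was 64.4% for Cdh8, 36.8% for Cdh10 and 63.2% for Pcdh10. CACCC was in 11 of 23 windows of the set (47.8%), against 52.0% of all 32851 windows, and GGGCGG in 8 (34.8%), against 32.7%. CAGGTG, the E-box letters bound by Snail and Zeb repressors of Cdh1, was in 3 (13.0%), against 17.2%, and in none of the windows printed. These are matches of letters and not measured binding.

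No cadherin or protocadherin separated mutant from wild-type pups past the threshold. Of the 56 genes, 35 had a mean level of at least 5.19, the 40th percentile of single-gene probe sets, and entered the test, and 21 were too dim. With limma, 0 of the 35 were called (adjusted p = 1 for each), beside 0% of all 12703 genes tested. At an unadjusted p under 0.05, 0 were lower and 0 higher in the mutant, where 0.441% and 0.157% of all genes were. The smallest unadjusted limma p was 0.0716, for Pcdh10. The median log2 difference, mutant minus wild type, was -0.07, against -0.02 over all genes tested. The difference was below 0 for 19 of the 35 (54.3%, against 52.6% of all genes). Groups did not overlap for 1 gene, Cdh2, which was lower in the mutant, and for 0 on the higher side, beside 1.95% and 0.905% of all genes. Within the 3 pairs of arrays that share a replicate number, 3 genes were lower in every pair (Cdh2, Pcdh10 and Pcdhb19; 8.57%, against 9.46% of all genes) and 3 higher (Cdh4, Pcdh9 and Pcdhb12; 8.57%, against 6.31%).

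The test left differently sized changes possible for different members. On the probe set used, the 95% interval lay inside a 2-fold change in either direction for Cdh1, Cdh2, Cdh11, Cdh26, Pcdh8, Pcdh17 and Pcdh18. These were 20% of the 35, against 30.2% of all genes tested. For the other genes tested a 2-fold change in at least 1 direction lay within the interval. The median standard error over the 35 was 0.66, against 0.51 over all genes tested.

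**Figure D1:**
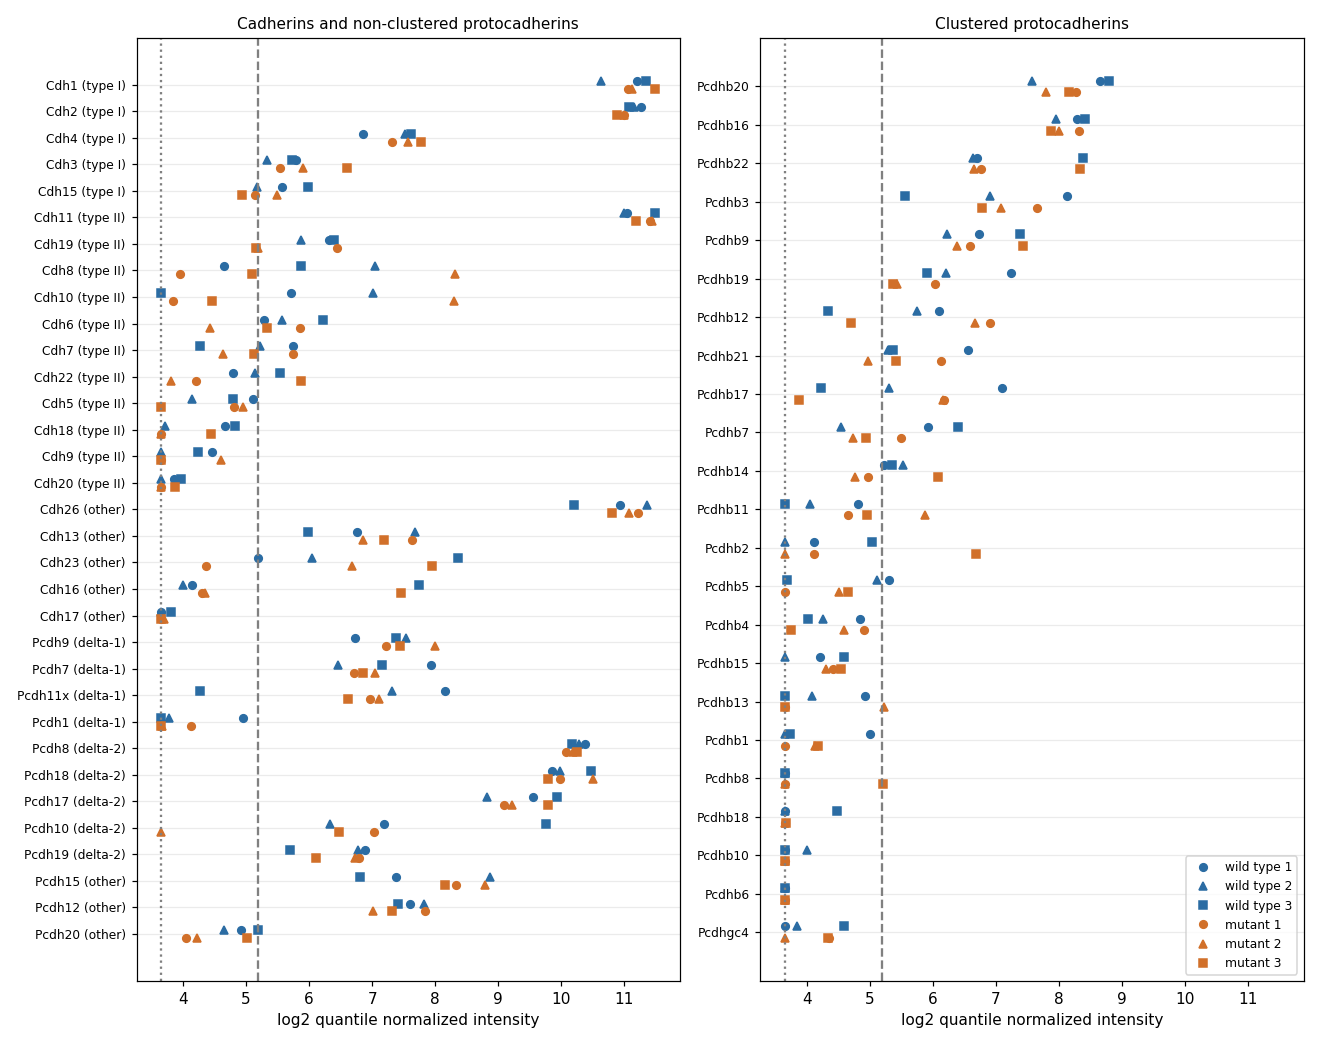
Log2 quantile normalized intensity (horizontal axis) of the probe set used for each of the 56 genes (rows, by class), with wild-type arrays in blue and mutant arrays in orange and the marker shape giving the replicate number (circle 1, triangle 2, square 3). The dotted line is the floor (3.65) and the dashed line the level for testing (5.19); most genes show mixed blue and orange, and Cdh16 and Cdh23 show both squares at the right.

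Among type I cadherins, all 5 measured genes were tested and none was called. Cdh2 read 11.27, 11.16 and 11.08 on wild-type arrays 1, 2 and 3 and 10.99, 11.0 and 10.89 on mutant arrays 1, 2 and 3. Every mutant array was thus below every wild-type array, though the groups were close. The log2 difference was -0.21 (SE 0.183, 95% interval -0.61 to 0.20), a 1.15-fold lower level, with a limma adjusted p of 1. A second Cdh2 probe set, 1449244_at, read 9.41, 9.69 and 9.37 in the wild-type pups and 9.06, 9.07 and 9.06 in the mutants, a difference of -0.43, again with no overlap. The groups of the first probe set overlapped with array medians set equal and in the values as deposited, where the difference was -0.11. In the deposited intensities the second probe set overlapped too, with 514.43 on wild-type array 3 and 640.97 on mutant array 2.

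Beside Cdh2, markers of mature olfactory neurons had a summed level (log2 of the sum of intensities) of 12.50 to 12.88 on wild-type and 11.72 to 12.06 on mutant arrays. The medians of this list overlapped. They were 8.82, 8.83 and 8.26 on wild-type and 8.0, 9.28 and 8.41 on mutant arrays 1, 2 and 3. Gnal, Cnga2, Stoml3, Gng13 and Slc17a6 were lower on each mutant array than on any wild-type array. Omp and Cnga4 overlapped, and Adcy3 and Cngb1 were highest on mutant arrays 2 and 3. Markers of immature neurons (8 of 8 measured) had summed levels of 13.40 to 13.48 on wild-type and 13.04 to 13.27 on mutant arrays. Their medians overlapped, with 9.87, 9.74 and 9.89 on wild-type and 9.09, 8.99 and 9.91 on mutant arrays 1, 2 and 3. Stmn2, Dpysl3 and Crmp1 were lower on each mutant array than on any wild-type array, and the rest of that list overlapped. Fibroblast markers (7 of 7) had summed levels of 13.75 to 14.27 on wild-type and 14.05 to 14.14 on mutant arrays. The part of these cells in the Cdh2 values was not tested.

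Cdh1 read 11.20, 10.63 and 11.35 (wild type) and 11.07, 11.13 and 11.49 (mutant), with overlapping groups. Its difference was 0.17 (SE 0.234, 95% interval -0.34 to 0.68). Cdh1 was lowest on wild-type array 2, the array with the highest squamous markers (summed level 12.62). It was highest on mutant array 3, where these markers summed to 10.97. Their lowest sum was 8.59, on mutant array 2, where Cdh1 read 11.13. The part of squamous cells in the Cdh1 values was not tested. P-cadherin (Cdh3), a cadherin of basal and stratified epithelia, read 5.79, 5.33 and 5.73 on wild-type arrays and 5.53, 5.91 and 6.60 on mutant arrays, a difference of 0.40 (SE 0.664). Its second probe set above the level for testing differed by 0.58, and both were highest on mutant array 3. R-cadherin (Cdh4), of retina and brain, went from 7.33 ± 0.41 to 7.55 ± 0.23 (SD, n = 3 each), with a difference of 0.22 (SE 0.466). M-cadherin (Cdh15), of muscle precursors, went from 5.58 ± 0.40 to 5.19 ± 0.28 (SD, n = 3 each), a difference of -0.39 (SE 0.713). Its values lay near the level for testing, and only 1 of the 9 skeletal muscle markers was bright enough to be tested.

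Of 11 type II cadherins measured, 5 were tested. Cdh11, the cadherin of mesenchyme and bone-forming cells, read 11.05, 11.0 and 11.48 in the wild-type pups and 11.41, 11.44 and 11.18 in the mutants. The groups overlapped, and the difference was 0.17 (SE 0.200, 95% interval -0.27 to 0.61), with 0.03 on its second probe set. Cdh19, a cadherin of Schwann cells and their precursors, read 6.32, 5.87 and 6.39 (wild type) and 6.44, 5.18 and 5.16 (mutant). Mutant arrays 2 and 3 were below all wild-type arrays and mutant array 1 was above them, for a difference of -0.60 (SE 0.678). Markers of ensheathing glia and Schwann cells (6 of 8 measured) had a summed level of 11.60 to 12.05 in wild type and 11.86 to 12.16 in mutant. Cdh6 read from 5.28 to 6.22 in wild type and from 4.42 to 5.86 in mutant, a difference of -0.49 (SE 0.747), but its second probe set above the level for testing differed by 0.18.

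Cdh8 and Cdh10 varied most among the type II genes, and did so within the genotypes. Cdh8 read 4.65, 7.05 and 5.87 on wild-type arrays and 3.95, 8.32 and 5.09 on mutant arrays. Cdh10 read 5.71, 7.02 and 3.65 in the wild-type pups and 3.84, 8.30 and 4.46 in the mutants. For both genes the arrays numbered 2 were the highest in each genotype. The genotype differences were -0.07 (SE 1.092) for Cdh8 and 0.08 (SE 1.230) for Cdh10, small against ranges over the arrays of 4.37 and 4.65. The other 6 type II genes were dim: Cdh5, Cdh7, Cdh9, Cdh18, Cdh20 and Cdh22 lay between the floor and 5.87 on all arrays. Cdh5 is VE-cadherin, the adhesion receptor of endothelium. It read 3.65 to 5.10, while 8 of 8 endothelial markers were tested, with medians of 6.67 to 7.59 over the arrays.

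**Figure D2:**
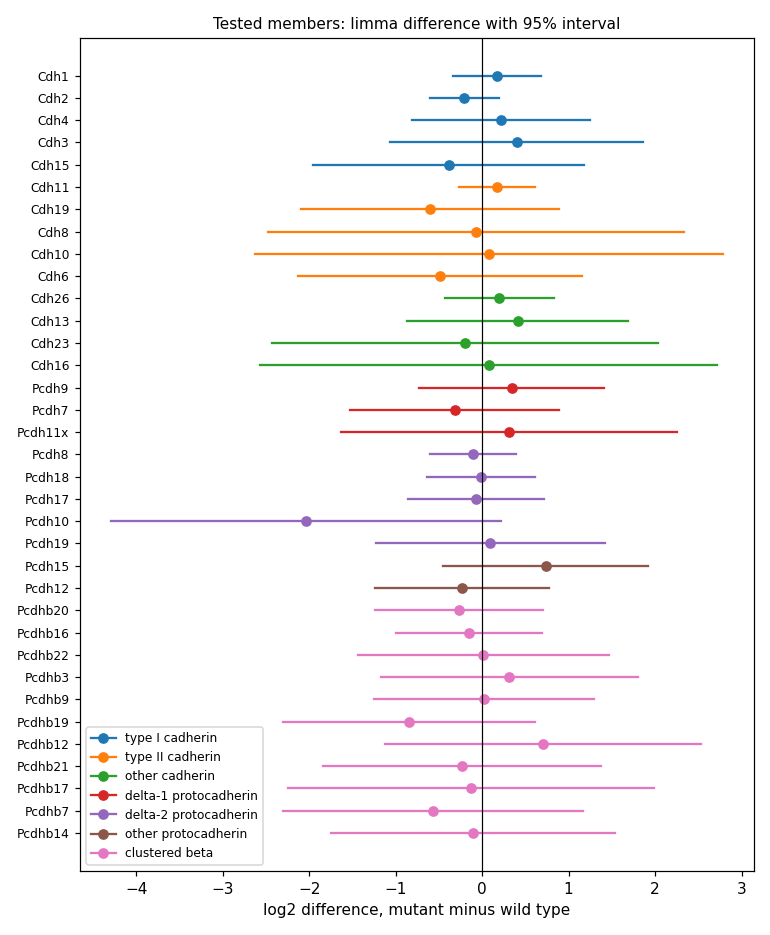
Log2 difference, mutant minus wild type (horizontal axis), for the 35 genes tested, with the limma 95% interval as a bar and colour giving the class. Every interval spans 0; that of Pcdh10 reaches from -4.29 to 0.21.

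Among cadherins outside types I and II, 4 of 5 were tested. Cdh26, an atypical cadherin of epithelia, read 10.93, 11.37 and 10.21 (wild type) and 11.23, 11.07 and 10.80 (mutant), a difference of 0.20 (SE 0.284). Cdh13 (T-cadherin), which has a lipid anchor in place of a cytoplasmic tail, read 6.76, 7.69 and 5.99 on wild-type arrays and 7.63, 6.85 and 7.19 on mutant arrays, a difference of 0.41 (SE 0.581). For both genes wild-type array 2 was the highest, mutant array 1 the next and wild-type array 3 the lowest. Horizontal basal cell markers (6 of 6 measured) had medians of 8.43, 9.76 and 7.17 on wild-type arrays 1, 2 and 3 and 10.01, 8.09 and 9.0 on mutant arrays 1, 2 and 3, also with wild-type array 2 and mutant array 1 as the top arrays. Cartilage and bone markers (6 of 8 measured) had the same top arrays, with medians of 8.82 on wild-type array 2 and 8.24 on mutant array 1. So did the summed squamous markers, with 12.62 and 11.37, while their medians on mutant arrays 1 and 3 were 6.77 and 6.78. These top arrays were not particular to the lists above. Summed fibroblast markers (14.27 and 14.14) and central nervous system medians (5.46 and 5.69) had them too. Fibroblast medians and summed central nervous system markers had other top arrays. The part of any of these cells in the values of Cdh13 and Cdh26 was not tested.

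Cdh16, a cadherin known from kidney epithelium, and Cdh23, of the tip links of hair cells, were high on the arrays numbered 3. Cdh16 read 7.75 on wild-type array 3 and 7.46 on mutant array 3, and 3.99 to 4.34 on the other 4. Cdh23 read 8.36 and 7.95 on these arrays and 4.36 to 6.67 on the others. Their genotype differences were 0.08 (SE 1.199) and -0.20 (SE 1.014). In all, 7 of the 35 genes tested had both arrays numbered 3 as their highest (20%, against 18.9% of all genes tested), Cdh1, Cdh4, Pcdh17, Pcdhb9 and Pcdhb22 being the others. Cdh17, of intestine, was at the floor on 4 arrays and at most 3.81.

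Of the delta-1 protocadherins, 3 of 4 were tested. Pcdh9 read 6.72, 7.54 and 7.38 in the wild-type pups and 7.23, 8.0 and 7.44 in the mutants. It was higher in the mutant within each pair of arrays with the same number, by 0.51, 0.46 and 0.06, though the groups overlapped (difference 0.34, SE 0.487). Pcdh7 read 7.94, 6.46 and 7.16 (wild type) and 6.71, 7.04 and 6.85 (mutant) (difference -0.32, SE 0.547), and its second probe set above the level for testing differed by 0.27. Pcdh11x read 8.16, 7.32 and 4.27 on wild-type arrays and 6.97, 7.11 and 6.61 on mutant arrays. Wild-type array 3 stood below the other 5 arrays, and the difference of 0.32 (SE 0.882) became -0.70 without both arrays numbered 3. Pcdh1 was dim, between 3.65 and 4.94.

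All 5 delta-2 protocadherins were tested. Pcdh8 (arcadlin), a protocadherin that neuronal activity induces, read 10.38, 10.28 and 10.17 in the wild-type pups and 10.08, 10.19 and 10.25 in the mutants. These values spanned 0.30 over the 6 arrays, and the difference was -0.10 (SE 0.225). Its other probe set, 1417051_at, was 8.22 on wild-type array 3, 7.14 on mutant array 3 and 5.52 to 6.67 on the rest, so the probe sets of Pcdh8 gave different patterns over the arrays. Pcdh17, which acts in axon sorting, read 9.55, 8.82 and 9.94 (wild type) and 9.09, 9.22 and 9.78 (mutant) (difference -0.07, SE 0.358; -0.37 on its second probe set). Pcdh18 read 9.85 to 10.48 in wild type and 9.79 to 10.5 in mutant (difference -0.01, SE 0.284), and Pcdh19 5.69 to 6.89 and 6.11 to 6.80 (difference 0.09, SE 0.603). The second probe set of each above the level for testing differed by 0.78 and -0.23.

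Pcdh10, which guides olfactory and other axons, had the largest genotype difference of the set. The probe set used, 1421311_at, read 7.19, 6.32 and 9.76 on wild-type arrays and 7.03, 3.65 and 6.47 on mutant arrays. The difference was -2.04 (SE 1.023, 95% interval -4.29 to 0.21), with a limma adjusted p of 1 and unadjusted p of 0.0716. Mutant arrays 1 and 3 lay above wild-type array 2, so the groups overlapped. Blocking on replicate number gave an unadjusted limma p of 0.0101 and an adjusted p of 1. Leaving out 1 array at a time gave differences from -2.76 (without wild-type array 2, unadjusted limma p 0.0253, adjusted p 0.999) to -1.01 (without mutant array 2). Without mutant array 1 it was -2.70 (unadjusted limma p 0.0425, adjusted p 1), without wild-type array 3 -1.04, and with array weights -1.01. Because mutant array 2 lay at the floor, the size of the difference on this probe set depends on the floor, and was -2.11 with a lower one (10th percentile) and -1.61 with a higher one (40th percentile).

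Other Pcdh10 probe sets did not share that pattern. On mutant array 2, where 1421311_at was at the floor, 1444301_at read 8.81 and 1438134_at 7.22, in each case the highest of the 6 arrays. The first of these read 5.08, 8.16 and 6.89 in the wild-type pups and 5.62, 8.81 and 5.49 in the mutants. The second read 5.46, 6.87 and 6.31 (wild type) and 4.71, 7.22 and 4.56 (mutant). Their genotype differences were -0.07 and -0.72, against -2.04, and the remaining 3 Pcdh10 probe sets were dim. Among the 11 genes of the set with at least 2 probe sets above that level, the genotype differences had the same sign in 6.

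Those Pcdh10 probe sets followed the arrays as Cdh8 and Cdh10 did. Both arrays numbered 2 exceeded the other 4 by over 0.5 on 8 of the 101 probe sets of the family (7.92%, against 3.80% of all single-gene probe sets). These 8 belonged to Cdh8 (2), Cdh10 (2), Pcdh10 (2), Cdh7 (1) and Pcdh7 (1). Of these, Cdh8 1422052_at, Cdh10 1460538_at, Cdh7 1460045_at and Pcdh7 1427592_at were dim, with means of 4.54 to 4.94. Among probe sets above the level for testing, 4 of 47 had such a gap (8.51%, against 2.52% of all). With no minimum gap, both arrays numbered 2 were highest on 12 of the 101 (11.9%, against 7.69% of all). By the probe set used, both were highest for 4 of the 35 genes tested (11.4%, against 5.55% of all genes tested). Both were lowest for 6 of the 35 (17.1%, against 8.09%): Pcdh10, Pcdhb7, Pcdhb9, Pcdhb20, Pcdhb21 and Pcdhb22. The gap was widest for the Cdh8 probe set 1422052_at, with 1.71 between the lower of the arrays numbered 2 and the highest of the others, and was 1.31 for Cdh10 1433302_at and 1.27 for Pcdh10 1444301_at. These patterns were noticed in the values and are given as a description. Probe sets of 1 gene are not independent of each other. The 9 markers of the central nervous system had summed levels of 10, 9.88 and 9.10 on wild-type arrays 1, 2 and 3 and 10.02, 9.47 and 10.04 on mutant arrays 1, 2 and 3. Within this list Mbp read 8.11 to 9.13, Olig2 6.63 to 8.42, Gad2 5.82 to 7.14 and Olig1 3.65 to 7.32. Gad1, Gfap and Slc17a7 read from the floor to 5.69, 5.58 and 5.17, Neurod6 at most 3.81, and Th was at the floor on all 6 arrays. The part of such cells in the values of Cdh8, Cdh10 and Pcdh10 was not tested.

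**Figure D3:**
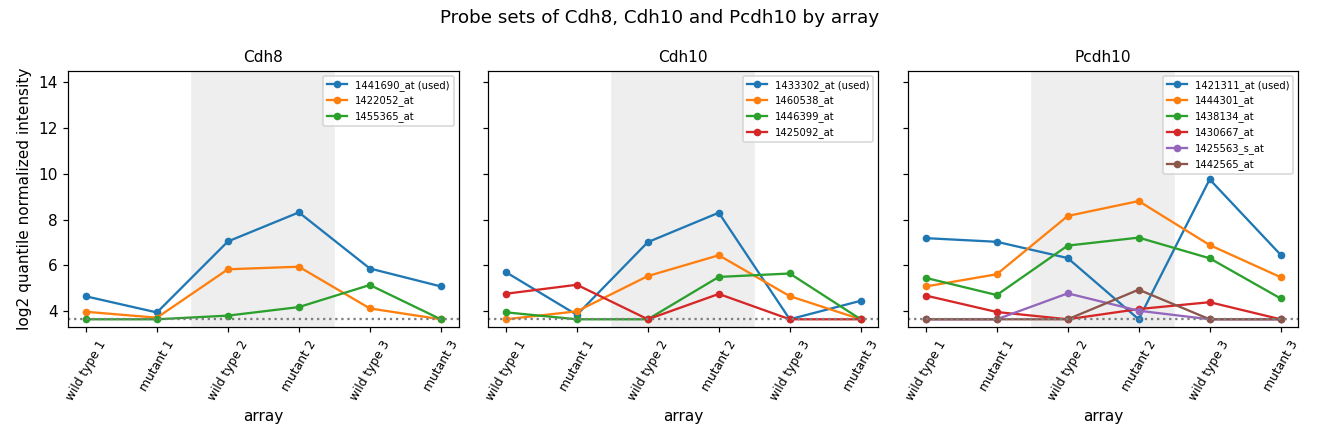
Log2 quantile normalized intensity (vertical axis) of every probe set of Cdh8, Cdh10 and Pcdh10 on the 6 arrays (horizontal axis, ordered by replicate number), with arrays numbered 2 shaded and the floor (3.65) dotted. The lines of Cdh8 1441690_at, Cdh10 1433302_at and Pcdh10 1444301_at peak in the shaded part, while Pcdh10 1421311_at falls to the floor on mutant array 2.

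Of the other non-clustered protocadherins, Pcdh15, the partner of Cdh23 in hair cell tip links, read 7.38, 8.88 and 6.81 on wild-type arrays and 8.33, 8.79 and 8.15 on mutant arrays. Wild-type arrays 1 and 3 were below all mutant arrays and wild-type array 2 was above them, for a difference of 0.73 (SE 0.540). Without wild-type array 2 it was 1.33, with an unadjusted limma p of 0.0234 and an adjusted p of 0.999. Its other probe sets were dim. Pcdh12, of endothelium, went from 7.62 ± 0.21 to 7.38 ± 0.42 (SD, n = 3 each), a difference of -0.23 (SE 0.459), and Pcdh20 was dim (4.05 to 5.19).

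The clustered protocadherins on the array were 22 beta genes and Pcdhgc4. Alpha genes and the other gamma genes had no probe set of their own in the annotation used. Beta genes resemble each other closely in sequence, so their probe sets can pick up RNA of neighbours. Of the 22, 11 were tested, with differences from -0.84 to 0.70 and a median of -0.13. The difference was below 0 for 7 and above 0 for 4, none was called, and the groups of all 11 overlapped.

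Pcdhb19 read 7.24, 6.22 and 5.91 in the wild-type pups and 6.03, 5.43 and 5.37 in the mutants. Only mutant array 1 reached into the wild-type range, and the difference was -0.84 (SE 0.660), with differences of -1.21, -0.79 and -0.54 within the pairs of arrays numbered 1, 2 and 3. Without wild-type array 1 the difference of Pcdhb19 was -0.45. Pcdhb12 read 6.09, 5.75 and 4.33 (wild type) and 6.91, 6.66 and 4.71 (mutant), higher within each pair by 0.82, 0.91 and 0.37 (difference 0.70, SE 0.832). Leaving out 1 array at a time took it from 0.17 (without wild-type array 3) to 1.40 (without mutant array 3), with 0.29 and 0.42 without mutant arrays 1 and 2. Pcdhb20 read 8.65, 7.57 and 8.80 on wild-type arrays and 8.27, 7.79 and 8.16 on mutant arrays (difference -0.27, SE 0.439). Pcdhb7 read 5.92, 4.54 and 6.40 in the wild-type pups and 5.49, 4.73 and 4.93 in the mutants (difference -0.57, SE 0.788). These groups overlapped after quantile normalization. In the values as deposited Pcdhb19 was the member with separated groups, with intensities of 139.68, 78.29 and 63.49 in wild type against 54.20, 54.35 and 41.83 in mutant.

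Some beta genes had their lowest or highest levels on the arrays numbered 3. Pcdhb3, Pcdhb12 and Pcdhb17 were lowest on both arrays numbered 3: Pcdhb17 read 4.22 and 3.88 there and 5.31 to 7.09 elsewhere. Of all members tested, 17.1% were lowest on both arrays numbered 3, against 19.1% of all genes tested. Pcdhb22 went the other way, with 8.38 and 8.33 on the arrays numbered 3 and 6.63 to 6.77 on the others. Pcdhb16 varied little, from 7.88 to 8.42, and differed by -0.16 (SE 0.384). The tested genes Pcdhb9, Pcdhb14 and Pcdhb21 differed by 0.02, -0.10 and -0.24 and Pcdhb3, Pcdhb17 and Pcdhb22 by 0.32, -0.13 and 0.01. Of the 11 dim beta genes, Pcdhb6 was at the floor on all arrays and Pcdhb2 read 6.69 on mutant array 3 and at most 5.03 on the others. The others (Pcdhb1, Pcdhb4, Pcdhb5, Pcdhb8, Pcdhb10, Pcdhb11, Pcdhb13, Pcdhb15 and Pcdhb18) stayed at or below 5.87, and Pcdhgc4 at or below 4.59.

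The adhesion system beyond the set was read from a list of 65 genes, of which 60 had a probe set and 51 were tested. None was called by limma (adjusted p = 1 for each), 2 were at an unadjusted p under 0.05, both lower, and the median difference was 0.03. Groups did not overlap for 2 genes on the lower and 2 on the higher side. Over all genes tested, 0.441% were lower and 0.157% higher at that p, and 1.95% and 0.905% had separated groups on those sides. Calsyntenin 2 (Clstn2), a cadherin-repeat protein of synapses, read 9.15, 8.89 and 9.93 (wild type) and 8.17, 8.24 and 8.47 (mutant). Its difference was -1.03 (SE 0.368), a 2.05-fold lower level with an adjusted p of 1. Its second probe set read 7.53, 6.49 and 6.75 on wild-type arrays and 6.27, 6.40 and 5.66 on mutant arrays, also without overlap. Cdhr1, once named as a protocadherin and found in photoreceptors and olfactory bulb neurons, read 9.43, 9.75 and 9.87 in the wild-type pups and 8.93, 8.76 and 9.08 in the mutants (difference -0.75, SE 0.293). Both stood beside the lower summed levels of the mature neuron markers given above for Cdh2, though the medians of those markers overlapped. The part of those cells was not tested.

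On the higher side, Cdhr3, a cadherin-related protein of ciliated airway cells, read 8.20, 8.39 and 7.50 (wild type) and 8.62, 8.56 and 9.60 (mutant) (difference 0.90, SE 0.428). The difference was 0.56 without mutant array 3 and 0.29 without both arrays numbered 3. Multiciliated cell markers (7 of 7 measured) had a summed level of 11.51 to 11.95 in wild type and 11.79 to 12.41 in mutant, and their part was not tested. Smchd1, a chromatin protein that represses clustered protocadherin genes among others, read 10.71, 10.79 and 10.60 on wild-type arrays and 10.94, 10.95 and 11.0 on mutant arrays (difference 0.26, SE 0.193).

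Of 17 catenins and junction partners (vinculin, afadin, Magi1 and Vezt among the latter), 15 were tested and none was called. Beta-catenin (Ctnnb1) read 12.50, 12.42 and 12.33 in the wild-type pups and 12.28, 12.65 and 12.47 in the mutants, a difference of 0.05 (SE 0.145), and p120 catenin (Ctnnd1) differed by 0.07 (SE 0.276). Alpha-catenins Ctnna1 and Ctnna2 differed by -0.02 (SE 0.201) and -0.58 (SE 0.431). Plakoglobin (Jup), which replaces beta-catenin at desmosomes, differed by -0.83 (SE 0.559), and by -1.06, -0.87 and -0.58 within the pairs of arrays numbered 1, 2 and 3. Blocking on replicate number gave Jup an unadjusted limma p of 0.0198 and an adjusted p of 1. Desmosomal genes Dsg2, Dsc2, Dsc3 and Dsp differed by 0.23, 0.25, 0.21 and -0.26. The repressors Snai2, Zeb1, Zeb2 and Twist1 differed by -0.12, -0.07, -0.20 and 0.05, and the regulators Ctcf and Rad21, which shape the clustered protocadherin locus, by 0.03 and -0.05.

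**Figure D4:**
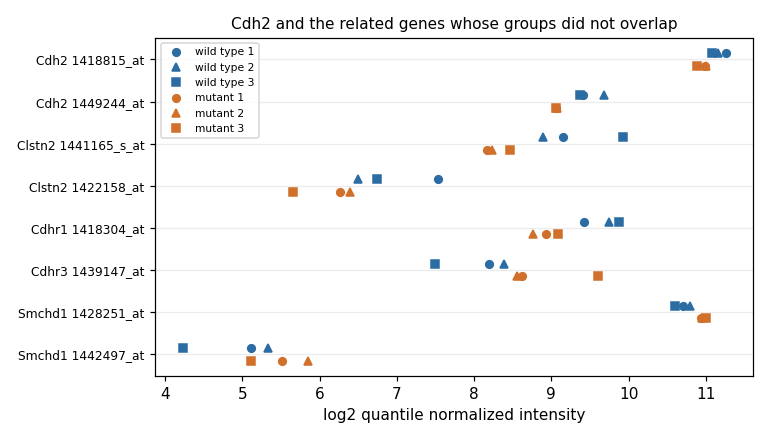
Log2 quantile normalized intensity (horizontal axis) of the probe sets of Cdh2 and of the 4 related genes whose groups did not overlap (rows), with wild-type arrays in blue, mutant arrays in orange and marker shape giving the replicate number. Blue lies right of orange for both probe sets of Cdh2 and of Clstn2 and for Cdhr1, and left of orange for Cdhr3 and Smchd1 1428251_at.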

How the data were processed

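Olfactory epithelium RNA from 3 wildtype and 3 mutant pups was extracted with a column kit and amplified into biotin-labelled cDNA, per the labels' protocols, with 1 array per pup. The authors deposited 1 linear intensity for each of 45037 probe sets and array. Probe summary, background correction, scaling and genome build: not given in the sources used here.

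Lower quartiles, medians and upper quartiles differed between arrays by up to 0.63, 0.69 and 0.54 on the log2 scale, so intensities were quantile normalized, given a floor of 12.56 (the 20th percentile) and converted to log2. Fold changes near the floor are understated. The Gene Expression Omnibus platform annotation gave 34945 probe sets 1 symbol, 932 several and 9160 none. All 56 members matched RefSeq genes of GRCm38.p6 by Entrez number, with 56 symbols the same. Genes below the 40th percentile of single-gene probe set means (5.19) were not tested. The other 12703 were fitted across all genes with limma 3.58.1 in R 4.3.3 (eBayes with intensity trend, two-sided, Benjamini-Hochberg, threshold 0.05); the code was tested on simulated data. The number of arrays limits the precision.

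Members and lists were chosen with earlier results of these data known. Genes given values are the 8 tested members of smallest p in each direction, those with separated groups, the 8 of highest intensity (which does not rank transcripts), the 6 of widest range, and all tested type I and II genes; the other members are accounted for by role, and related genes by smallest p or role, some chosen after their values were seen. Deviations from group means of arrays sharing a number correlated at 0.47, 0.18 and 0.56 over the genes tested, all above 0.1, so the replicate number from the titles was taken to pair arrays and run as a block among the alternatives. Wild-type array 2 correlated more with mutant array 1 (0.22) than with its own number. Other alternatives changed the dim filter, normalization, floor, variance model, array weights, probe set choice, threshold and arrays used.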

Additional observations from a re-analysis of the deposited data

How the results depend on the processing

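No gene was called in any setting, the replicate block and a threshold of 0.1 included, and 18 of 30 named differences kept their sign in each setting that gave them a value. Members lower at an unadjusted p under 0.05 numbered 1 with array medians set equal and 1 with the replicate block (Pcdh10 in both). Members with separated groups numbered 0 lower with medians set equal, and 5 lower and 3 higher without both arrays numbered 3. Related genes lower at that p numbered 0 with medians set equal, 0 without both arrays numbered 3 and 1 as deposited. Their separated groups numbered 0 higher with medians set equal, 1 higher with probe sets averaged, and 4 lower and 9 higher without both arrays numbered 3. The block took related genes lower at that p from 2 to 3 (Jup added) and changed no adjusted call. As deposited, the separated member was Pcdhb19 in place of Cdh2. Averaging probe sets gave no value for Pcdh10. Differences that turned sign were Pcdh18 (0.001 with medians set equal, 0.0594 as deposited, 0.10 with array weights, 0.18 with probe sets averaged, 0.32 without both arrays numbered 3), Pcdh17 (0.0072 as deposited), Cdh8 (0.16 with the floor at the 40th percentile, 0.28 without both arrays numbered 3), Cdh16 (-0.10 with that floor), Cdh10 (-0.96 with array weights, -0.29 without both arrays numbered 3) and Pcdh11x (-0.55 and -0.70 in those settings). Leaving out 1 array at a time gave 0 to 1 members lower and 0 to 1 higher at an unadjusted p under 0.05 (Pcdh10 without wild-type array 2 or mutant array 1, Pcdh15 without wild-type array 2), and 1 to 6 lower and 0 to 2 higher with separated groups. Related genes gave 0 to 3 lower and 0 to 1 higher, and 2 to 5 lower and 3 to 5 higher separated. Fewer arrays separate more easily by construction. Differences then ranged from -0.68 to 0.0563 for Pcdh7, -0.0439 to 0.32 for Cdh1, -0.0037 to 0.85 for Cdh13, -0.11 to 0.47 for Cdh26, -0.22 to 0.17 for Pcdh18, -0.38 to 0.18 for Pcdh17, -1.31 to 0.92 for Cdh10, -1.34 to 0.85 for Cdh8, -1.01 to 0.78 for Cdh23, -0.84 to 1.11 for Pcdh11x, -0.97 to 1.30 for Cdh16 and -0.0188 to 0.36 for Cdh4. The causes were not tested. Signal near the floor limits the 21 dim genes.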

Other observations

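The array also held 6 probe sets annotated to several genes at once with a protocadherin among them, which no comparison above uses. Which protocadherin families they read is not given here. The probe set 1420798_s_at, annotated to 14 symbols, read 10.29, 9.91 and 10.70 on wild-type arrays 1, 2 and 3 and 9.72, 9.98 and 10.76 on mutant arrays 1, 2 and 3. The groups overlapped, and the log2 difference was -0.15. On 1424341_s_at the arrays numbered 3 were at the floor of 3.65 in both genotypes, while the others read 6.28 to 7.67.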
